A study of Rattus norvegicus with 6 samples.

Results

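The genes for insulin and amylin were followed in islets of fetal Sprague Dawley rats at gestational day 22. The members were the rows named Ins1, Ins2 and Iapp in the deposited count tables, 3 of 17321 genes, and all 3 passed the filter on low counts together with 12276 genes in all. Libraries labelled high glucose (3) came from fetuses of the left uterine horn, which received a glucose infusion (4 mg/min) over 48 h that began on gestational day 20. Libraries labelled control (3) came from right-horn fetuses of the same dams, so the 6 libraries formed 3 dam pairs. In both groups a library held islets of 2 pooled pancreata, freed with collagenase, hand-selected, and rested for 24 h at 5 mM glucose in RPMI medium ahead of RNA extraction. Horn side went with treatment in every pair, so the side and the glucose cannot be told apart.

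Insulin is made in beta cells as preproinsulin, folded in the endoplasmic reticulum, cut to insulin and C-peptide by prohormone convertases in the secretory granule and stored there with zinc. Rats and mice carry a pair of insulin genes. Ins2 is the ancestral copy and Ins1 a retroposed copy that lost an intron. Iapp encodes amylin (islet amyloid polypeptide), a peptide of the calcitonin family that shares the beta cell granule with insulin and slows gastric emptying and reduces food intake; the rat peptide does not form amyloid. Transcription of the insulin genes rises with glucose and depends on the factors Pdx1, NeuroD1 and MafA, which bind short elements just upstream of the transcript start.

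The counted gene models differ in the same way. On the rn6 build, Ins1 lies on chromosome 1 from 272799784 to 272800349 on the plus strand, with 2 exons and 447 exonic bases. Ins2 lies on the same chromosome from 215856967 to 215858034 on the minus strand, with 3 exons and 450 exonic bases. Iapp lies on chromosome 4 from 176511020 to 176515935 on the plus strand, and its counted model had 2 exons and 282 bases. Read pairs from any transcript stretch outside these models were not counted.

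The 250 bases upstream of each transcript start are shown because these windows are where the insulin genes are known to be controlled, and because Ins1 and Ins2 shared most of their letters there. They are RefSeq sequences on the GRCr8 build, 5′ to 3′ on the gene's own strand, at chr1:261185869-261186118 (plus strand, Ins1), chr1:207273806-207274055 (minus strand, Ins2) and chr4:176967847-176968096 (plus strand, Iapp). Capitals mark TAAT on either strand (the homeodomain core bound by Pdx1), CATCTG (the E box of the insulin promoters) and TGC and TCAGC with any 4 bases between them (the Maf element).
Ins1: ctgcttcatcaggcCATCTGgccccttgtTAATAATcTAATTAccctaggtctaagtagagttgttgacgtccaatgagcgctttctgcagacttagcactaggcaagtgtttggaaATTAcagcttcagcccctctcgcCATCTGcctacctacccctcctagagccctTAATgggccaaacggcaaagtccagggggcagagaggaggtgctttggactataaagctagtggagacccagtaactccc
Ins2: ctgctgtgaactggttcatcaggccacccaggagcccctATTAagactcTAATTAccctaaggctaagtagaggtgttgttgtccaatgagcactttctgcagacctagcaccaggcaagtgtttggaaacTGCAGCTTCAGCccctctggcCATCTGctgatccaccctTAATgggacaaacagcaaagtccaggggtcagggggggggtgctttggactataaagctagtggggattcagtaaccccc
Iapp: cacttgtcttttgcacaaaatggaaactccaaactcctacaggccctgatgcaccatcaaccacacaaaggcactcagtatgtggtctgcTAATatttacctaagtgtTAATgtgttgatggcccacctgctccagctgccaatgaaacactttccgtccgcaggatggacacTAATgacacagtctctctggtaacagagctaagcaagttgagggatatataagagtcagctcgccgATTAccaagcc

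A global alignment put 238 bases of the Ins1 and Ins2 windows side by side, of which 205 (86.1%) were identical. With the same settings Iapp reached 61.6% against Ins1 and 61.7% against Ins2. Both insulin windows held TAAT at -80 to -77 and the TATA box, searched as TATAAA, at -30 to -25, counted from -1 at the base before the start. Matches were searched on both strands and could overlap. TAAT occurred 6 times in Ins1 and 4 times in Ins2, where some matches overlap each other, and 4 times in Iapp, and 57.0% of the 33469 rat windows of this length held at least 1. CATCTG occurred 2 times in Ins1, 1 time in Ins2 and 0 times in Iapp (14.0% of all windows held it). The Maf element was found 1 time in Ins2 and in neither of the other windows (0.896% of all windows), and TGACG, the core of a cyclic AMP response element, 1 time in Ins1 alone among the 3 (18.2%). CCAAT occurred 1 time in each of the 3 (34.0%). The matches describe the letters only.

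**Figure D1:**
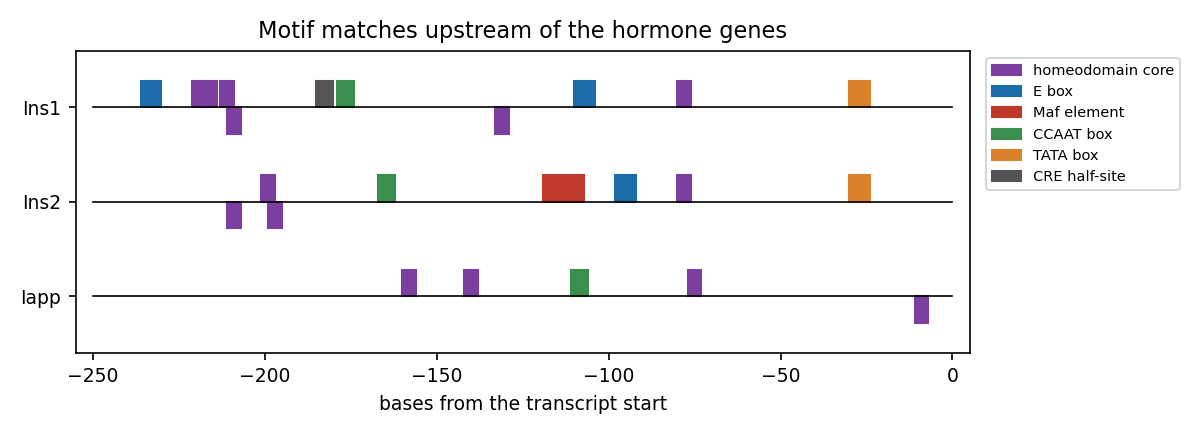
Motif matches in the 250 bases upstream of Ins1, Ins2 and Iapp; the x axis gives bases from the transcript start, boxes above a line are matches on the gene's strand and boxes below it on the other strand. The TATA box at -30 to -25 and the homeodomain core at -80 to -77 stand in the same place in both insulin genes, and the Maf element appears in the Ins2 row.

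Total counts per library lay between 18077841 and 30993532. File names and sample titles disagree on the horn: their letters are opposite for 6 of 6 libraries. Groups follow the treatment labels, and every direction given would turn if the file names were right. CPM are counts relative to library sizes scaled by TMM (trimmed mean of M values). TPM are counts per base of gene model, scaled to the same total in every library.

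Insulin transcripts led these libraries per length. In TPM, Ins1 ranked first of all genes in 5 of 6 libraries and second in the high glucose library of pair 3, behind Tmsb10 (12869 TPM), a thymosin that binds actin monomers. Ins1 averaged 21846 ± 12961 TPM in high glucose and 27330 ± 10344 TPM in control (SD, n = 3 each). Ins2 averaged 18440 ± 13941 TPM in high glucose and 24151 ± 8621 TPM in control. Ins2 ranked between 2 and 5. The order Ins1 above Ins2 held in 6 of 6 libraries, though the group means of the insulin genes differed by less than their SD.

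Iapp stood well below both, at 1445 ± 980 TPM in high glucose and 2680 ± 1711 TPM in control (SD, n = 3 each). It ranked between 18 and 212 among all genes in TPM. Per base of model, Ins1 carried 14.2, 19.9 and 13.3 times the counts of Iapp in the high glucose libraries of pairs 1 to 3, against 6.10, 28.8 and 10.7 times in the control libraries. Among the other islet hormones, glucagon (Gcg, of alpha cells) averaged 4213 ± 2589 TPM in high glucose and 4707 ± 2233 TPM in control. Peptide YY (Pyy) averaged 3800 ± 1231 TPM in high glucose and 4302 ± 683 TPM in control, and the ranges of Gcg, Pyy and Iapp overlapped. Somatostatin (Sst, of delta cells) averaged 619 ± 383 TPM in high glucose and 864 ± 124.7 TPM in control, pancreatic polypeptide (Ppy) 181 ± 85.7 and 207 ± 44.7 TPM, and ghrelin (Ghrl) 73.2 ± 30.9 and 77.9 ± 32.2 TPM.

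**Figure D2:**
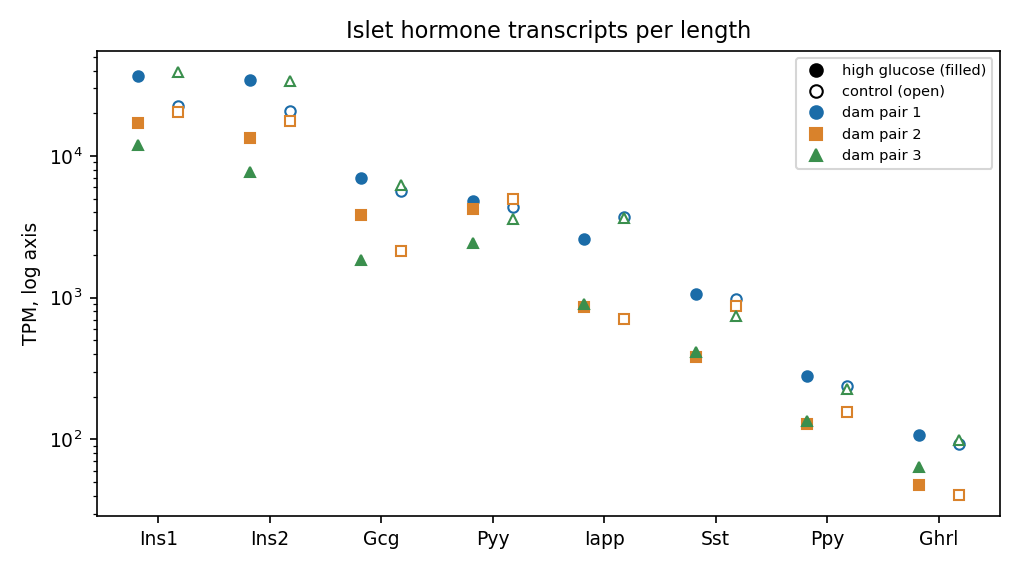
TPM on a log axis for 8 islet hormone genes, ordered by their mean over the 6 libraries; filled symbols are high glucose libraries, open symbols control libraries, and the symbol shape gives the dam pair. Ins1 and Ins2 lie between 7655 and 39210 TPM, above every other hormone gene shown, and Iapp spans 705 to 3684 TPM.

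The first question was whether the hormone genes differ between infused and control fetuses of one dam. None of the 3 passed the test, and each differed in both directions over the pairs, as 77% of all genes did. Across all genes 2 of 12276 (0.0163%) passed, both lower in high glucose, by edgeR's quasi-likelihood test with dam as a block and a Benjamini-Hochberg adjusted p below 0.05. By that test 592 genes had an unadjusted p below 0.05, and the hormone genes were not among them. DESeq2 called 106 of 14522 genes (0.73%), and 0 of the 3 hormone genes (DESeq2 adjusted p = 0.99997 each). In bulk islets, fewer beta cells and less hormone RNA per cell cannot be told apart.

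Ins1 measured 9114, 5826 and 2862 CPM in the high glucose libraries of pairs 1 to 3, against 5358, 7063 and 11630.5 CPM in the control libraries. The highest and the lowest value both came from pair 3, and the groups overlapped. High glucose was 1.70 times control in pair 1, 0.825 times in pair 2 and 0.246 times in pair 3. The fitted log2 fold change was -0.49 (SE 0.55, 95% interval -1.85 to 0.86, edgeR adjusted p = 0.9996). Without pair 1 it was -1.15 (edgeR unadjusted p = 0.00978, adjusted p = 0.487), and without pair 3 it turned to 0.25 (edgeR adjusted p = 0.9995).

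Ins2 followed Ins1. It measured 8587, 4639 and 1843 CPM in high glucose, against 5025, 6162 and 10129 CPM in control. The library with the least Ins2 was again the high glucose one of pair 3. The ratio of high glucose to control was 1.71, 0.753 and 0.182 in pairs 1 to 3. The fitted log2 fold change was -0.67 (SE 0.71, 95% interval -2.54 to 1.20, edgeR adjusted p = 0.9996). Without pair 1 it was -1.44 (edgeR unadjusted p = 0.00939, adjusted p = 0.487), and without pair 3 it was 0.18 (edgeR adjusted p = 0.9995).

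Iapp had the opposite sign to the insulin genes in pairs 1 and 2. It measured 406, 184 and 136 CPM in high glucose, against 554, 155 and 683 CPM in control. High glucose was 0.732 times control in pair 1, 1.19 times in pair 2 and 0.199 times in pair 3. Both libraries of pair 2 were low. The fitted log2 fold change was -0.82 (SE 0.60, 95% interval -2.48 to 0.84, edgeR adjusted p = 0.9996). It was -1.39 without pair 2 (edgeR unadjusted p = 0.0582, adjusted p = 0.862), -1.04 without pair 1 (edgeR adjusted p = 0.9996) and -0.10 without pair 3 (edgeR adjusted p = 0.9995).

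**Figure D3:**
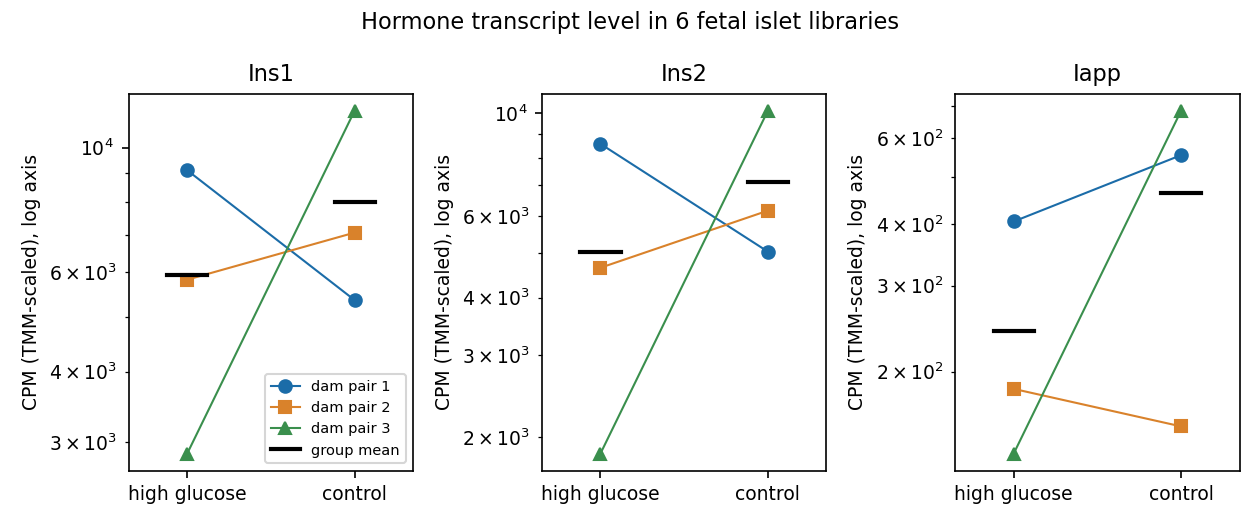
CPM on a log axis for Ins1, Ins2 and Iapp in the high glucose and control library of each dam pair (lines join libraries of 1 dam, black bars are group means, n = 3). The line of pair 3 runs against that of pair 1 in the insulin panels, while in the Iapp panel the line of pair 2 stands against the other pairs.

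The spread between pairs was wide for these genes. The 3 within-dam log2 differences had an SD of 1.41 for Ins1, 1.64 for Ins2 and 1.33 for Iapp. Of all genes tested, 4.36% had a larger SD than Ins1, 2.75% than Ins2 and 4.98% than Iapp. The log2 difference in pair 3 was -2.02 for Ins1, -2.46 for Ins2 and -2.33 for Iapp, and 1.23%, 0.538% and 0.692% of genes lay further down in that pair.

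Together the 3 genes held 1.13% ± 0.71 of all counts in high glucose and 1.54% ± 0.57 in control (SD, n = 3 each). The difference was 0.69, -0.23 and -1.68 percentage points in pairs 1 to 3, with a mean of -0.41 (two-sided exact sign-flip permutation p = 0.75; the smallest p that 3 pairs allow is 0.25). Without pair 3 the mean difference was 0.23 percentage points. Single shares were tightly bounded by depth. The smallest, Iapp in the control library of pair 2, was 0.0138% of counts (95% Wilson interval 0.0133 to 0.0144), and such intervals cover counting error only.

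The second question was how the insulin genes share their output. Ins1 gave 1.06, 1.26 and 1.55 counts per Ins2 count in the high glucose libraries of pairs 1 to 3, against 1.07, 1.15 and 1.15 in the control libraries. The control libraries lay within a factor of 1.08 of each other and the high glucose libraries within 1.46. As a share of insulin counts, Ins1 held 51.5%, 55.7% and 60.8% in high glucose, against 51.6%, 53.4% and 53.5% in control. The 95% Wilson interval was 60.6% to 61.1% in the high glucose library of pair 3 and 53.3% to 53.6% in its control. These intervals cover counting error within a library, not the spread between dams.

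The log2 Ins1 to Ins2 ratio differed by -0.01, 0.13 and 0.44 in pairs 1 to 3, with a mean of 0.19 ± 0.23 (SD, n = 3 pairs; two-sided exact sign-flip permutation p = 0.5). Without pair 3 the mean was 0.06, and without pair 1 it was 0.28. The ratio was higher in high glucose in pairs 2 and 3, where both insulin genes were lower in high glucose. The mapping quality minimum dropped read pairs that fit both genes, which can shift the level of this ratio.

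The third question was how amylin goes with insulin. Iapp gave 2.29, 1.76 and 2.89 counts per 100 insulin counts (Ins1 plus Ins2) in high glucose, against 5.34, 1.17 and 3.14 in control. This ratio varied 4.57-fold among the control libraries, far more than the Ins1 to Ins2 ratio. The log2 difference was -1.22, 0.59 and -0.12 in pairs 1 to 3, with a mean of -0.25 ± 0.91 (SD, n = 3 pairs; two-sided exact sign-flip permutation p = 0.75). It was 0.24 without pair 1 and -0.67 without pair 2.

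Insulin was also set against other beta cell genes, to ask how much hormone message there was per unit of beta cell message. The denominator was the summed count of 11 genes: the glucose transporter Slc2a2, the zinc transporter Slc30a8, the factors Pdx1 and Nkx6-1, the potassium channel genes Abcc8 and Kcnj11, Glp1r, Sytl4, Ucn3, Ffar1 and Trpm5. Insulin counts per marker count were 24.4, 43.7 and 26.8 in high glucose, against 26.6, 56.6 and 39.7 in control. With this sum each high glucose library was below the control of its dam. In pair 3 the log2 differences of single markers ran from -2.80 (Slc30a8) to -0.67 (Nkx6-1), against -2.02 for Ins1 and -2.46 for Ins2. The sign of the ratio in pair 3 thus depends on which markers are summed. The ranges of the groups overlapped.

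The log2 difference of this ratio was -0.13, -0.37 and -0.57 in pairs 1 to 3, with a mean of -0.36 ± 0.22 (SD, n = 3 pairs). The two-sided exact sign-flip permutation p was 0.25, the smallest that 3 pairs allow, and the Benjamini-Hochberg adjusted p was 0.75 over the 5 shares and ratios tested. Against 9 genes common to endocrine cells, such as the granins Chga and Chgb and the processing enzymes Pcsk2 and Cpe, the differences were -0.01, -0.42 and -1.33 (mean -0.59, exact sign-flip p = 0.25), so the mean moved by over 1.5 times with the choice of denominator.

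Iapp per beta cell marker count was 0.559, 0.770 and 0.774 in high glucose, against 1.42, 0.661 and 1.25 in control. The log2 difference was -1.35, 0.22 and -0.69, with a mean of -0.61 ± 0.79 (SD, n = 3 pairs; two-sided exact sign-flip permutation p = 0.5). In pair 1 insulin per marker count was 0.917 times control, and Iapp per marker count was 0.393 times control. Without pair 1 the mean for Iapp was -0.23, and without pair 2 it was -1.02.

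**Figure D4:**
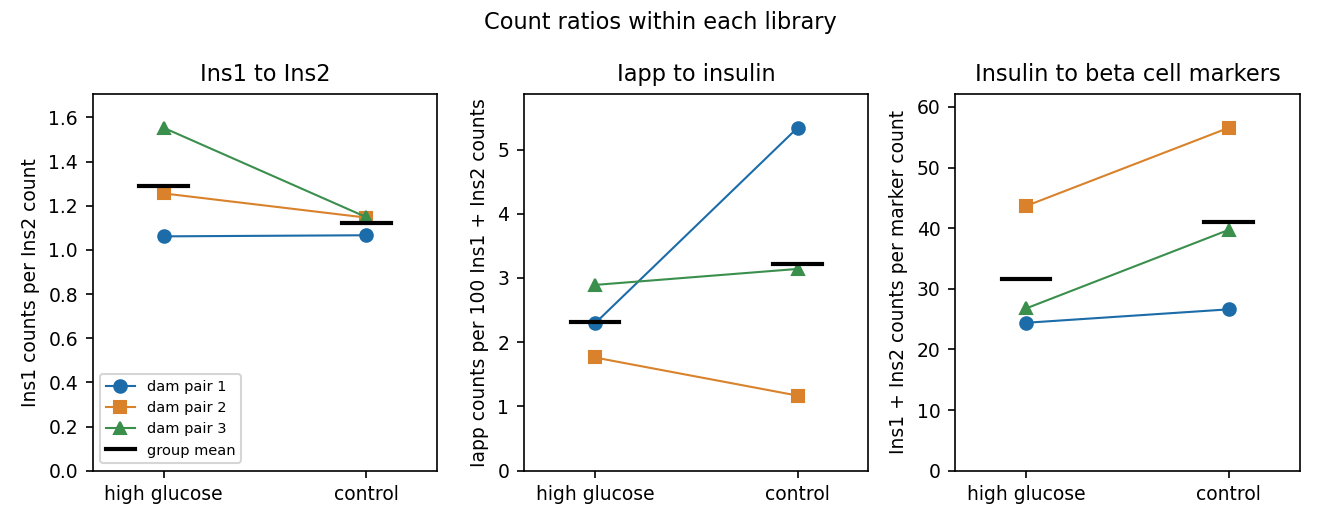
Count ratios within each library for the high glucose and control library of each dam pair: Ins1 per Ins2 count, Iapp per 100 insulin counts and insulin per count of 11 beta cell markers (lines join libraries of 1 dam, black bars are group means, n = 3). The 3 control libraries lie within a factor of 1.08 in the first panel, and every line rises to the right in the last.

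Genes around the hormones were grouped by role. The lists share genes, so like values in them are not independent. Of 17 factors that act on the insulin genes or set beta cell identity, 14 were counted and tested, and 0 passed (background 0.0163%). Their median log2 fold change was -0.20, against 0.0041 over all genes tested. In pair 1, 12 of the 14 were higher in high glucose (50.1% of all genes), and in pair 3, 11 of the 14 were lower (51.3% of all genes). Pdx1 measured 48.4 ± 31.3 CPM in high glucose and 51.0 ± 10.3 CPM in control (SD, n = 3 each). Its log2 difference was 0.91, -0.37 and -1.28 in pairs 1 to 3, the same signs as the insulin genes. Neurod1 had these signs too (1.26, -0.40 and -1.83), and so did Nkx6-1 (0.91, -0.33 and -0.67). The highest fitted log2 fold change of the list was 0.43 (Pax4, under 1 CPM) and the lowest -0.49 (Mnx1). Tcf3, the E-box partner of NeuroD1 and the most abundant factor of the list, was higher in all 3 pairs (0.15, 0.10 and 0.48), as 11.7% of all genes were. Mafa was not analysed here.

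Of 15 genes of prohormone processing and the granule, 14 were tested and 0 passed, with a median log2 fold change of -0.20. In pair 1, 13 of the 14 were higher in high glucose (50.1% of all genes), and in pair 3, 13 of the 14 were lower (51.3% of all genes). The convertase genes Pcsk1 (0.99, 0.44 and -2.24 in pairs 1 to 3) and Pcsk2 (1.09, 0.18 and -2.13) and the carboxypeptidase Cpe (0.68, 0.10 and -1.41) turned sign with the pair. Slc30a8, which loads the zinc that insulin crystals need, had the lowest fitted log2 fold change of this list, at -0.57 (SE 1.04, edgeR adjusted p = 0.9996), and -2.80 in pair 3. Chgb, the most abundant of the list, measured 1024 ± 446 CPM in high glucose and 866 ± 262 CPM in control. It was the exception in pair 3, at 0.14. Vgf, a neuropeptide precursor, was lower in high glucose in all 3 pairs (-1.07, -0.32 and -0.17), as 11.3% of all genes were (edgeR adjusted p = 0.9996). Among the 9 genes common to endocrine cells the fitted log2 fold change ran between -0.50 (Scgn) and 0.28 (Isl1). Most of these, such as Chgb, Pcsk2 and Cpe, are in the granule list too.

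The 11 tested genes of glucose sensing and secretion had 0 calls and a median log2 fold change of -0.12. All 11 were higher in high glucose in pair 1 and all 11 lower in pair 3, a pattern that 24.9% of all genes showed. Slc2a2, through which glucose enters the rat beta cell, differed by 1.12, 0.92 and -2.60 in pairs 1 to 3. Ucn3, a late marker of beta cell maturity, differed by 1.86, 0.08 and -2.45. The fitted log2 fold change ran between -0.44 (Trpm5) and 0.17 (the calcium channel Cacna1d). Among the 11 beta cell markers, most of which are also in the glucose sensing list, it ran between -0.57 (Slc30a8) and 0.15 (Glp1r), with a median of -0.12. Ins1 and Ins2 had this pattern and Iapp did not, being lower in high glucose in pair 1. The 5 other islet hormones had it too, with 0 calls and a median of -0.31. Gcg differed by 0.36, 0.80 and -2.07, and Sst by 0.17, -1.22 and -1.14.

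**Figure D5:**
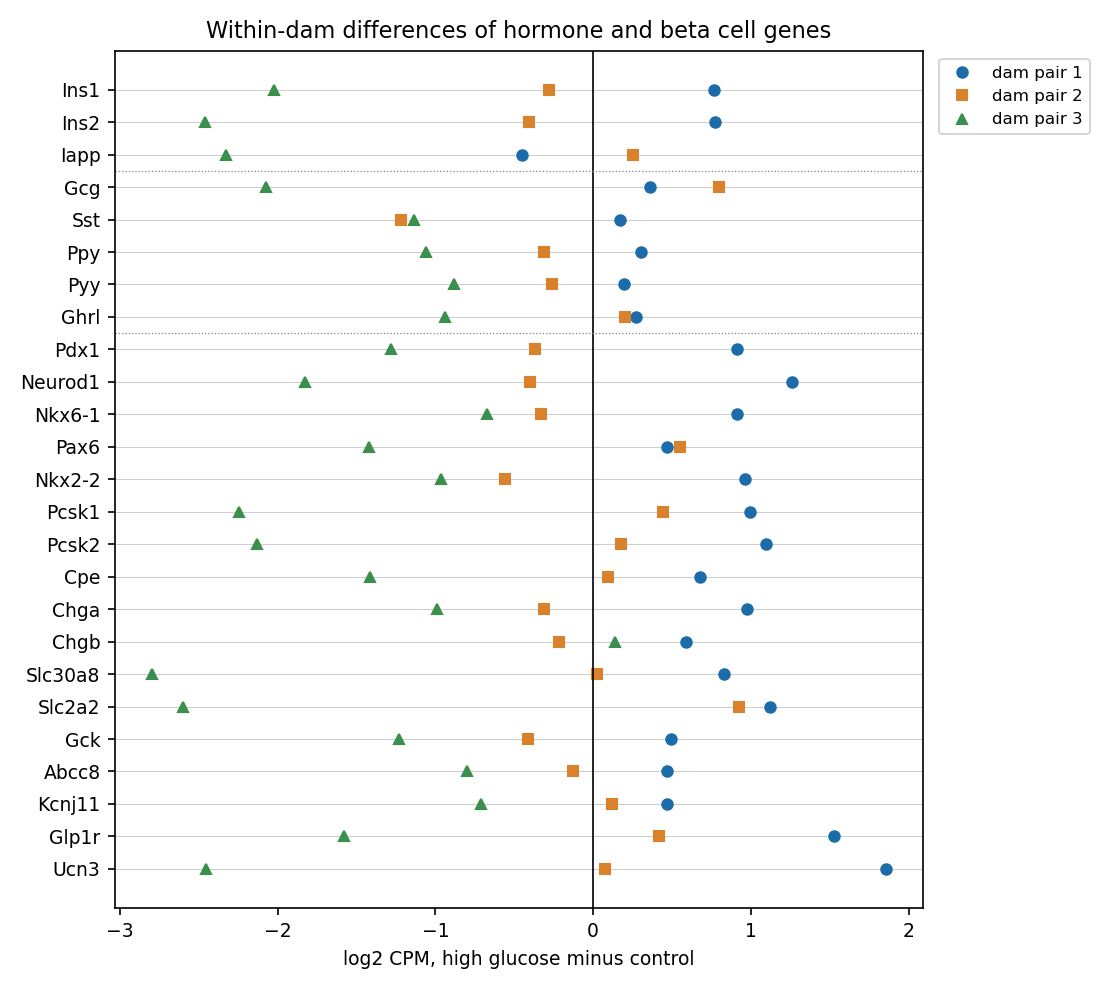
Difference in log2 CPM, high glucose minus control, within each dam pair for the 3 hormone genes (top), 5 other islet hormones (middle) and 17 genes of beta cell identity, processing and secretion (bottom). In pair 1 every gene shown except Iapp lies right of 0, and in pair 3 every gene shown except Chgb lies left of 0.

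Receptors and clearance of the hormones showed 0 calls among 7 genes tested, with a median log2 fold change of -0.10. The insulin receptor Insr measured 25.6 ± 16.2 CPM in high glucose and 25.1 ± 12.5 CPM in control (SD, n = 3 each). Calcr, the calcitonin receptor that makes up the core of the amylin receptors, stood at 0.309 ± 0.221 CPM in high glucose and 0.207 ± 0.206 CPM in control. Ramp1, which turns that receptor into an amylin receptor, measured 8.28 ± 5.74 CPM in high glucose and 16.1 ± 6.15 CPM in control. It was lower in all 3 pairs (-1.30, -0.63 and -1.35), as 11.3% of all genes were, and its edgeR adjusted p was 0.340. Ramp2, the most abundant of the list, differed by 0.07, -0.83 and -0.35, and Ide, the insulin-degrading enzyme, by 0.05, 0.48 and -0.15.

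Of the insulin and calcitonin families, 6 of 10 counted genes were tested, with 0 calls. Igf2, a fetal growth factor, lies 18757 bases downstream of Ins2 on the same strand and was the most abundant family member after the insulin genes, at 2498 ± 1110 CPM in high glucose and 2713 ± 2075 CPM in control (SD, n = 3 each). Its log2 difference was 0.89, -0.45 and -0.26, so it had the signs of Ins2 in each pair, but in pair 3 its size was far smaller than the -2.46 of Ins2. Calcb, a calcitonin gene-related peptide, was higher in all 3 pairs (1.11, 0.46 and 0.23; 11.7% of all genes were), with an edgeR adjusted p of 0.945. Adm, a related vasodilator peptide, had the lowest fitted log2 fold change of the families (-0.44).

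Other counted genes near the members had smaller differences in pair 3. Beside Iapp, Pyroxd1 (49.8 kb away) differed by 0.41, -0.33 and -0.07 and Recql by 0.00, 0.13 and -0.07, against -0.45, 0.25 and -2.33 for Iapp. Slco1a5, 4.67 kb away, had 0 to 11 counts per library and Slco1a6 had 0. The nearest counted genes to Ins1 lay far from it. Xpnpep1 (908 kb away) differed by -0.18, -0.03 and -0.07 and Add3 (1054 kb) by 0.05, 0.05 and 0.04. Sorcs1 (2327 kb) differed by 0.21, 0.16 and -0.31, and Mir3584 (1524 kb) had 0 counts. Beside Ins2, Th, which starts catecholamine synthesis, had 4 to 9 counts per library, and Mir483 had 0 counts. Ascl2, with only 7 to 25 counts per library, differed by -0.14, -0.60 and 0.54. The listed model of Cttn (0 to 4 counts) spans Ins2.

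Genes were also ranked by how closely their log2 CPM, centred over the 6 libraries, followed each member. The measure was the root mean square difference over the 6 libraries, among 8808 genes with a mean of at least 10 CPM. Ins1 and Ins2 differed by 0.19 on this log2 scale, and 2 genes were closer to Ins1 than Ins2 was, while 0 were closer to Ins2 than Ins1 was. Iapp differed by 0.70 from Ins1 and by 0.69 from Ins2, where the median gene differed by 0.74 and 0.88. Closer than Iapp were 3268 genes for Ins1 and 560 for Ins2, and 428 genes were closer to Iapp than Ins2 was.

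The nearest genes to Ins1 were Fam151a (0.16), the glutamine transporter Slc38a5 (0.16), Sez6l2 (0.21), the granule protein Resp18 (0.24) and the chloride channel Tmem206 (0.25). For Ins2 they were Slc38a5 (0.20), Fam151a (0.23), Evi2a (0.24), Cdk5r2 (0.27) and Sez6l2 (0.29). Slc38a5 differed by 0.58, -0.12 and -2.40 in pairs 1 to 3. The nearest to Iapp were Gch1 (0.23), which makes the cofactor tetrahydrobiopterin, the adrenergic receptor Adra2a (0.29), which restrains insulin release, Lrp11 (0.32), the calcium sensor secretagogin Scgn (0.34) and Tspan13 (0.35). Gch1 differed by -0.41, 0.05 and -1.56, with the signs of Iapp in every pair, as Tspan13 had. Lrp11 and Scgn had the other sign in pair 1 and Adra2a in pair 2. Shared signs follow in part from picking genes by profile. None of these genes passed the edgeR test (adjusted p = 0.9996 each). The ranking describes 6 libraries from 3 dams that share their dam and tissue makeup.

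Summed levels of markers of other cells are given beside the hormones, and none of these genes passed the test. The 11 acinar markers summed to 179, 1903 and 808 CPM in high glucose, against 262, 1233 and 37.5 CPM in control. In pair 3 all 10 tested acinar genes were higher in high glucose, with a median log2 difference of 3.86, while 51.3% of all genes were lower. Ctrb1 was the most abundant of them, at 446 ± 404 CPM in high glucose and 230 ± 294 CPM in control (SD, n = 3 each). Fitted log2 fold changes of acinar genes ran between 0.66 (Prss1) and 1.56 (Cpb1). The 5 duct markers summed to 2647, 2026 and 5344 CPM in high glucose, against 1240.3, 1459 and 3578 CPM in control. Spp1 was the most abundant duct marker (log2 fold change 0.76), Cftr the highest in fold change (1.54, edgeR adjusted p = 0.231) and Krt19 the lowest (0.24). The 8 mesenchyme markers summed to 23567, 30144 and 32861 CPM in high glucose, against 17269, 34290.5 and 39632 CPM in control. Col3a1 was the most abundant of them (log2 fold change 0.13), with Pdgfra at 0.24 and Lum at -0.42 as the extremes.

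Erythroid markers (5 genes) summed to 144, 596 and 83.5 CPM in high glucose, against 1484, 1408 and 375 CPM in control, and all 3 tested were lower in all 3 pairs (11.3% of all genes). Immune markers (5 genes) summed to 373, 335 and 209 CPM in high glucose, against 509.6, 437 and 457 CPM in control, and endothelial markers (5 genes) to 572, 216 and 504 CPM in high glucose, against 558, 579 and 647 CPM in control. The extremes of the fitted log2 fold change were -4.50 (Slc4a1) and -2.16 (Hbb, the most abundant) among erythroid genes, -2.87 (Cd52) and -0.41 (Cd68) among immune genes, whose most abundant was C1qa (-0.67), and -0.87 (Cldn5) and -0.35 (Tek) among endothelial genes, whose most abundant was Cdh5 (-0.72). No marker counted was at 0 in all libraries, but Hba1, Hba2, Pnlip and Col1a2 had only 0 to 12 counts per library and were not tested. Those 4 added next to nothing to the sums. Of the tested markers, 0 passed the edgeR test over all genes, whose smallest adjusted p among them was 0.143 (Cd52). The Y-linked gene Eif2s3y had 90.2, 39.2 and 0.436 CPM in high glucose, against 83.9, 0.186 and 62.8 CPM in control, so it was near 0 in the high glucose library of pair 3 and in the control library of pair 2. Ddx3y, also Y-linked, had 2.77, 0.781 and 1.21 CPM in high glucose, against 2.20, 0.866 and 1.98 CPM in control. With only the listed acinar, mesenchyme and erythroid genes taken out of the total, the share of the hormone genes differed by -1.75 percentage points in pair 3, against -1.68 with them. All other RNA of those cells stayed in the total, so this does not show what their admixture did to the share. The part of any of these cell types and of the Y-linked genes in these differences was not tested.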

How the data were processed

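The 6 deposited tables hold counts that the authors obtained with featureCounts 1.5.1 from rn6 alignments and a UCSC refGene annotation, for read pairs, at strand setting 2 and a mapping quality of at least 10, per the file headers. STAR 2.5 stands in the submitters' processing notes, which list mm10 beside rn6. The library kit was a stranded mRNA kit, per the labels' protocols. Differences were fitted with edgeR 4.0.16 under R 4.3.3: TMM scaling, filterByExpr, a robust quasi-likelihood fit on dam and treatment, and Benjamini-Hochberg adjustment over 12276 genes. SEs were taken from the F statistic. Log2 CPM used a prior count of 2. The fit was also run on simulated counts with the same treatment effect in every pair, which does not cover the spread between pairs seen here. Shares and ratios were compared by exact sign-flip permutation within dams. Alternatives were DESeq2 1.42.0, other scalings, no filter, no block and leaving out each pair. Libraries of a group differed beyond counting noise.

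Pairs come from the stem that titles share and from the series design, which describes controls paired within the dam. Deviations from the group means correlated at 0.474, 0.621 and 0.413 within dams. The members, lists and tests were chosen with earlier results of these data known. Named genes were the members, the 2 nearest counted genes on each side of each, the 5 nearest profiles of each, the most abundant gene and both extremes of fold change of each list, and a fixed set of hormone biology genes. Neurod1, Ucn3, Vgf, Ide, Pyy, Ppy, Tmsb10, Eif2s3y and Ddx3y were named outside that rule, after their values were seen. List genes without a row under their symbol or a RefSeq synonym (7 symbols) are not analysed here. Upstream sequences are RefSeq's (GRCr8), matched by symbol for 3 of 3 members and aligned with Biopython 1.88 (match 1, mismatch -1, gap opening -3, extension -0.5).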

Additional observations from a re-analysis of the deposited data

How the results depend on the processing

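With 3 pairs no ratio or share could pass 0.05, so for these the alternatives show direction only. The number of genes called was 2 in the fit reported and with DESeq2's size factors or library size alone, 0 with no replicate block (192 genes at an unadjusted p below 0.05), 18 with no filter, 106 with DESeq2 and 18 to 55 without 1 pair. The cause was not tested. Ins1, Ins2 and Iapp passed under none of these. Their log2 fold changes with no replicate block were -0.43, -0.50 and -0.94, and under the other scalings, no filter and DESeq2 they were -0.49 to -0.48 for Ins1, -0.66 to -0.65 for Ins2 and -0.81 for Iapp. Leaving out 1 pair gave -1.15 to 0.25 for Ins1, -1.44 to 0.18 for Ins2 and -1.39 to -0.10 for Iapp, with the turn to higher values for the insulin genes when pair 3 was left out. The Ins1 to Ins2 difference ranged from 0.06 to 0.28, that of Iapp to insulin from -0.67 to 0.24 (turned without pair 1), that of insulin per marker from -0.47 to -0.25, that of Iapp per marker from -1.02 to -0.23, and the share from -0.96 to 0.23 percentage points (turned without pair 3). With the mean log2 CPM of the markers as denominator, insulin differed by -0.40 and Iapp by -0.65. With no replicate block, exact label permutation gave p = 0.6 for insulin per marker and p = 0.4 for Ins1 to Ins2 (smallest possible 0.1). The lowest count of a hormone gene in any library was 2499.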
